A study of Mus musculus with 6 samples.

Results

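Receptors for the classical small transmitters and for purines were followed across the non-neuronal cells of the mouse hypothalamus. The genes were chosen by symbol alone: listed symbols were taken that match a fixed set of name patterns for the ionotropic or metabotropic glutamate, GABA-A, GABA-B, adrenergic, serotonin, muscarinic, nicotinic, dopamine, P2X, P2Y or adenosine receptor families, which gave 82 of the 16411 listed genes. One of them, Chrna1os, is by its symbol an RNA from the strand opposite a nicotinic subunit gene and not a receptor. The patterns do not cover every subunit: those for the GABA-A and nicotinic receptors leave out the listed genes Gabre, Gabrq and Chrne, so counts by family below refer to the genes that matched. The rule itself uses no measured value.

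All mice were male, carried the ob/ob genotype, which removes leptin and leads to obesity and diabetes, and were 11 weeks old. Each received 3 µg of FGF1 R50E, a fibroblast growth factor 1 with a substitution that impairs integrin binding, by intracerebroventricular injection, and was killed 5 days later. Whole cells of the hypothalamus were sequenced with the 10x Genomics 3′ v2 chemistry in 1 library per mouse. Of 6 labelled mice, the table of cells held 4, mice 3, 4, 30 and 34, all of the single R50E group, so no effect of the injection was estimated and every value below describes ob/ob mice given R50E.

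Ionotropic receptors are channels opened by glutamate, GABA, acetylcholine, serotonin or ATP. Metabotropic receptors signal through G proteins. Glia carry both kinds: precursors of oligodendrocytes receive synapses that use AMPA and GABA-A receptors, astrocytes sense glutamate, GABA and noradrenaline, and microglia follow extracellular ADP and UDP through P2Y receptors. Ectoenzymes at the cell surface break ATP down to ADP and further to adenosine, so that released ATP can reach several of these receptors in turn.

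The 20151 cells carried 33708 UMIs (counted molecules) of the chosen genes, or 0.141% of all UMIs. Levels are given in CPM, the UMIs of a gene scaled to the UMI total of the same mouse and cell type, with the mean ± SD over 4 mice; counts of 3′ ends do not grow with transcript length, so the CPM of different genes were set side by side. The authors' 9 cell type labels were used, and 8 of them had 20 or more cells in every mouse. The vascular leptomeningeal cells, 68 in all, reached that number in mouse 30 only and were left out. The sum over a cell type and mouse held 44756 to 2319177 UMIs and was smallest in microglia, with 34 to 128 cells per mouse, so values in microglia are the least certain. The fixed marker genes had their highest level in the type they mark for every label except the committed precursors, where this held for 4 of 5.

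Messages of other cells were present in every type and are given here once. The summed level of 10 neuronal markers, in the absence of a neuronal label, was 561 ± 110 CPM in oligodendrocyte precursor cells, 197 ± 86.0 CPM in committed precursors and between 266 and 369 CPM in the other types. Mouse 4 had the highest sum in all 8 types. The astrocyte marker Agt stood at 6.06% to 12.0% of its astrocyte level in the other 7 types, Slc1a2 at 11.9% to 37.4% and Gja1 at 5.08% to 35.0%. Mice 3 and 34 on one side and mice 4 and 30 on the other had the most similar astrocyte sums, with a chi-square per gene of 1.93 and 1.90 against 3.16 to 5.23 for the other pairs. The part of these messages in the results was not tested.

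Of the 82 genes, 69 had at least 1 UMI. The other 13 were listed at 0 in every cell: the adenosine receptor Adora3, P2rx2, P2ry2, P2ry10, the dopamine receptor Drd5, the GABA-A subunit Gabrd, the nicotinic subunit Chrna3 and 6 serotonin receptors, Htr2a, Htr3a, Htr3b, Htr4, Htr5b and Htr6. A filter on genes before deposit could have set them to 0, so no upper limit was derived. A measurable level, meaning a mean of at least 10 CPM and at least 10 UMIs in 1 or more types, was reached by 48 genes. The remaining 21 genes had at most 75 UMIs each over all cells.

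The families were unequally represented. The 4 AMPA receptor subunits held 10259 UMIs, or 30.4% of those of all chosen genes, and the 2 GABA-B receptor genes 7456 UMIs, or 22.1%. The matched GABA-A subunit genes held 14.1%, with 10 of 13 at a measurable level. Measurable levels were reached by 4 of 5 kainate, 4 of 5 NMDA and 2 of 2 delta receptor genes, by 4 of 7 metabotropic glutamate receptors, by 3 of 4 P2X, 5 of 7 P2Y and 3 of 4 adenosine receptors and by 4 of 7 adrenergic receptors. None of 11 serotonin and none of 2 dopamine receptor genes did so, with 75 and 2 UMIs in all. One of 4 muscarinic and 1 of 4 nicotinic genes did.

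The number of genes at a measurable level differed between cell types, and a gene's highest type was taken among those where it was measurable. Oligodendrocyte precursor cells had 34 of the 82 genes at a measurable level and the highest level of 18, astrocytes 26 and 10, and microglia 10 and 6. Committed precursors had 19, ependymal cells 19, tanycytes 17, oligodendrocytes 16 and endothelial cells 14 genes at a measurable level. Over all listed genes, that level was reached by 58.0% in oligodendrocyte precursor cells, 53.7% in astrocytes and 31.7% in microglia, against 41.5%, 31.7% and 12.2% of the chosen genes. Summed over the 82 genes, the level was 3139 ± 119 CPM in oligodendrocyte precursor cells, 2454 ± 102 CPM in astrocytes, 2042 ± 211 CPM in committed precursors, 1865 ± 438 CPM in microglia and 718 to 939 CPM in the other types. Committed precursors and microglia overlapped within their SD, and so did oligodendrocytes and tanycytes, and endothelial and ependymal cells.

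**Figure D1:**
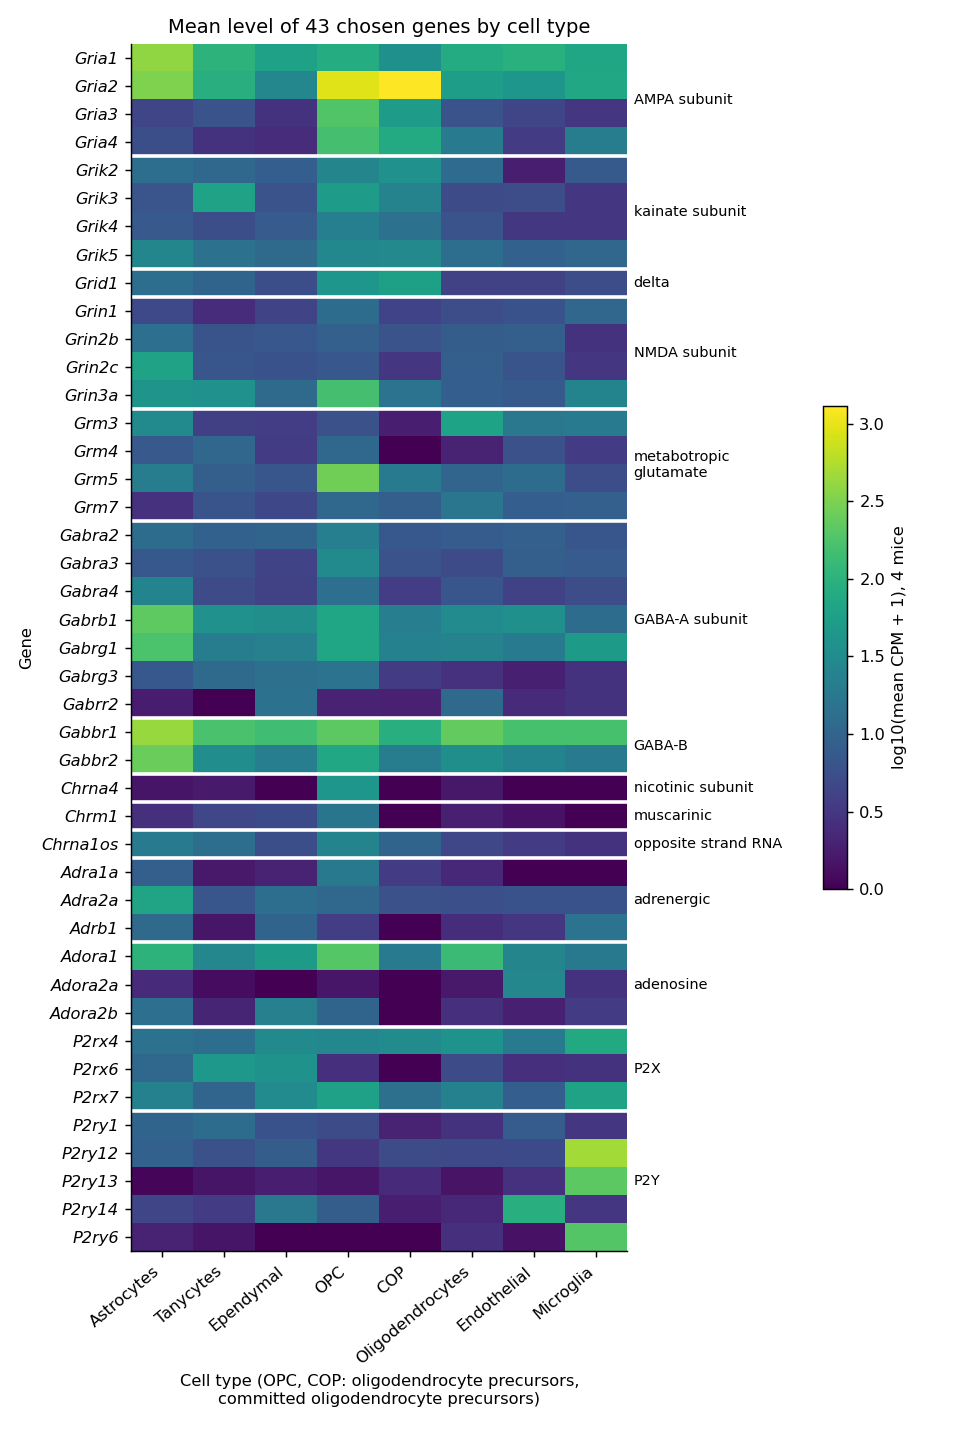
Heat map of the mean level (colour, log10 of CPM + 1, over 4 mice) of 43 genes at a measurable level (rows, grouped by receptor family) in 8 cell types (columns). Gria2 in committed precursors is the brightest field at 1300 CPM, and P2ry12, P2ry13 and P2ry6 are bright in microglia alone among the 8 types.

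Cell types were compared in pairs within the same mice with the edgeR quasi-likelihood test on UMI sums, with mouse as a block. A gene was called at a Benjamini-Hochberg adjusted p below 0.05 over all genes tested and a log2 fold change beyond 1. The labels were drawn by the authors from the expression of the same cells, so the p-values measure spread between mice and do not test the labels. A gene entered a comparison only if its counts were high enough in the sums, and a gene that enters through the type where it is high had to differ; the counts below describe and lend no support to a statement about the families.

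Between astrocytes and tanycytes, 19 of 31 tested genes of the 82 were called, 17 higher and 2 lower in astrocytes, where 21.1% of 10081 tested genes were called, 11% higher and 10.1% lower. Between astrocytes and ependymal cells, 16 of 20 were called, 15 of them higher in astrocytes, against 31.8% of 8371 genes, 14.3% of them called higher and 17.6% lower. Between tanycytes and ependymal cells the count was 6 of 16, 3 in each direction, against 19.8% of 8781 genes, 6.73% higher and 13.1% lower. Oligodendrocyte precursor cells differed from oligodendrocytes in 15 of 21 of the chosen genes, 14 of them higher in the precursors, where 28% of 6497 genes were called, 15.2% higher and 12.8% lower. Committed precursors were lower than oligodendrocyte precursor cells in 11 of 15 and higher in 0, although 4 of the 15 were within the fold limit, where 24% of 4879 genes were called, 10.8% higher and 13.2% lower. Microglia differed from astrocytes in 14 of 15, 5 higher and 9 lower, against 37.8% of 4778 genes, 17.8% higher and 20% lower. Endothelial cells differed from astrocytes in 17 of 19, 2 higher and 15 lower, against 35% of 7616 genes, 17.2% higher and 17.8% lower. Without Chrna1os, which was tested in the comparisons of astrocytes with tanycytes, ependymal cells and endothelial cells, these counts were 19 of 30, 15 of 19 and 16 of 18.

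The median log2 fold change of the tested chosen genes was 1.34 in astrocytes against tanycytes, 2.03 in astrocytes against ependymal cells and 0.26 in tanycytes against ependymal cells. It was 2.40 in oligodendrocyte precursor cells against oligodendrocytes and -1.61 in committed precursors against oligodendrocyte precursor cells, the latter also with Chrna4 set at the bound given below. In microglia and in endothelial cells against astrocytes it was -1.74 and -2.38. Without Chrna1os the medians were 1.35 and 1.93 in astrocytes against tanycytes and ependymal cells and -2.35 in endothelial cells against astrocytes. Over all genes tested, the medians of the 7 comparisons lay between -0.08 and 0.03.

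The AMPA receptor is the channel of fast glutamate signals, and Gria2 encodes the subunit that, after RNA editing, keeps calcium out of it. In committed precursors, the stage between precursor cells and oligodendrocytes, Gria2 stood at 1230.0, 1290.3, 1096 and 1583 CPM in mice 3, 4, 30 and 34, the highest level of any chosen gene. In oligodendrocyte precursor cells the level was 895, 927, 858 and 984 CPM in the same order, below the committed precursors of every mouse. The difference of 0.54 ± 0.07 (SE, edgeR adjusted p = 7.63e-10) passed the p threshold but lay within the fold limit. Oligodendrocytes had 31.0, 71.0, 70.0 and 45.5 CPM, and the precursor cells exceeded them by 3.88 ± 0.11 (SE, edgeR adjusted p = 1.04e-61) on the log2 scale. The mean in oligodendrocytes, 54.4 ± 19.5 CPM, lay within the 26.8 to 87.6 CPM of tanycytes, ependymal cells, endothelial cells and microglia.

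The same order held in shares of cells. A Gria2 UMI was found in 59.6% of 1261 precursor cells (95% exact interval 56.8 to 62.3), in 79.3% of 681 committed precursors (76.1 to 82.3) and in 5.32% of 4566 oligodendrocytes (4.69 to 6.01). Committed precursors were the deepest cells, with a median of 1771 UMIs against 1020 and 1136. With each cell thinned to 500 UMIs, the shares were 38.3%, 43.5% and 2.08%. Ependymal cells had a Gria2 UMI in 3.01% of cells at a median of 1131 UMIs, and 0.98% after thinning. Intervals of shares and levels cover counting error only.

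Gria3 and Gria4 followed another course. Gria3 stood at 199, 172, 178 and 193 CPM in the precursor cells and 56.2, 20.4, 57.4 and 68.8 CPM at the committed stage, and the groups did not overlap. It was at 1.83 to 5.28 CPM in astrocytes, tanycytes, ependymal cells, oligodendrocytes, endothelial cells and microglia. The log2 fold change of committed precursors against precursors was -1.84 ± 0.19 (SE, edgeR adjusted p = 2.97e-14), and that of precursors against oligodendrocytes 5.11 ± 0.23 (SE, edgeR adjusted p = 3.15e-42). Gria4 had 155 ± 18.4 CPM in precursors, 78.3 ± 22.4 CPM at the committed stage and 17.6 ± 3.84 CPM in oligodendrocytes; its difference between the first 2 was -0.86 ± 0.18 (SE, edgeR adjusted p = 2.65e-05), within the fold limit.

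Gria1 had its highest level in astrocytes. It stood at 368, 405, 426 and 360.4 CPM there, and the highest value in any other type was 118 CPM, in the tanycytes of mouse 4. The other 7 types lay between 36.0 and 102 CPM, or 9.22% to 26.3% of the astrocyte level. The astrocyte markers Agt, Slc1a2 and Gja1 stood at 6.06% to 12.0%, 11.9% to 37.4% and 5.08% to 35.0% in those types. The part of astrocyte RNA was not tested. Astrocytes were higher than tanycytes by 1.96 ± 0.10 (SE, edgeR adjusted p = 1.68e-19) and higher than ependymal cells by 2.87 ± 0.15 (SE, edgeR adjusted p = 1.60e-12), in 4 of 4 mice each. Astrocytes also carried Gria2, at 392, 262, 244 and 397 CPM; mice 3 and 34 were above mice 4 and 30, with no overlap. In tanycytes Gria2 stood at 87.6 ± 14.9 CPM against 26.8 ± 2.40 CPM in ependymal cells, a difference of 1.76 ± 0.18 (SE, edgeR adjusted p = 5.60e-11) that was called and that was positive in 4 of 4 mice.

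**Figure D2:**
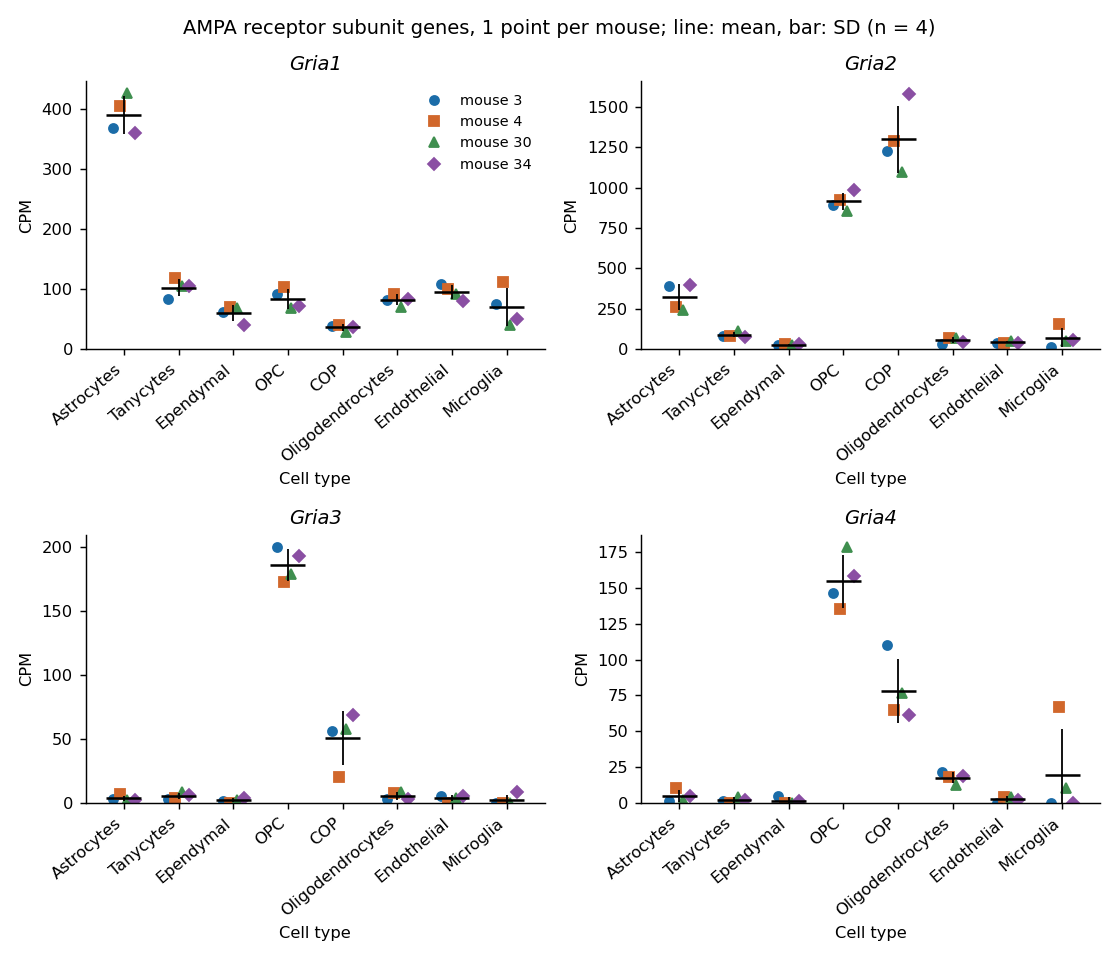
Level of the 4 AMPA receptor subunit genes in 8 cell types. Each point is 1 mouse (CPM, linear axes that start at 0), the line is the mean and the bar the SD over 4 mice; the vertical scale differs between panels. Gria1 peaks in astrocytes, Gria3 and Gria4 in oligodendrocyte precursor cells (OPC) and Gria2 in committed precursors (COP), at 1096 to 1583 CPM.

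Auxiliary subunits set the gating and surface delivery of glutamate receptors and were read beside them. Of 16 such genes, 6 were tested between precursors and oligodendrocytes and 5 were called, all higher in precursors: Cacng4, a transmembrane AMPA receptor regulatory protein, by 5.51 ± 0.15 (SE, edgeR adjusted p = 6.35e-66), Shisa7 by 5.36 ± 0.36 (SE, edgeR adjusted p = 7.09e-28), and Neto2, Shisa9 and Olfm1 by 2.38, 1.29 and 1.07. Cacng4 stood at 665 ± 32.3 CPM in precursors, 112 ± 21.6 CPM at the committed stage and 12.1 ± 5.87 CPM in oligodendrocytes. From precursors to committed precursors, Cacng4 and Shisa7 were lower by -2.56 ± 0.13 (SE, edgeR adjusted p = 2.79e-33) and -3.40 ± 0.37 (SE, edgeR adjusted p = 8.75e-14), while Gria2 was not lower in any mouse. In astrocytes, 1 of 6 tested auxiliary genes was called higher and 1 lower than in tanycytes, Shisa9 at 1.33 and Nptxr at -1.18.

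Kainate and delta receptors showed narrower patterns. Grik3, a kainate receptor subunit, stood at 44.2, 62.4, 89.5 and 46.5 CPM in tanycytes, the glia of the ventricle floor, with the highest value in mouse 30. It was at 4.85, 2.89, 6.33 and 7.22 CPM in ependymal cells and 3.17, 2.57, 12.0 and 5.00 CPM in astrocytes, so that neither of its neighbours at the ventricle overlapped the tanycytes. Tanycytes were higher than ependymal cells by 3.38 ± 0.29 (SE, edgeR adjusted p = 1.51e-13), and astrocytes differed from tanycytes by -3.46 ± 0.23 (SE, edgeR adjusted p = 1.18e-15). Oligodendrocyte precursor cells had a Grik3 level, 50.1 ± 12.1 CPM, that overlapped that of tanycytes. A Grik3 UMI was found in 6.39% of 4490 tanycytes (5.69 to 7.15) and in 0.85% of 1530 ependymal cells (0.45 to 1.45) at medians of 1143 and 1131 UMIs, and in 3.05% and 0.26% after thinning.

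Of the delta receptors, which bind cerebellins at synapses rather than open to glutamate, Grid1 had 58.5 ± 7.27 CPM at the committed stage and 42.7 ± 6.23 CPM in precursors, against 3.06 ± 1.04 CPM in oligodendrocytes. It was not called between the first 2 stages, with a log2 fold change of 0.51 ± 0.26 (SE, edgeR adjusted p = 0.0984). It was called higher in precursors than in oligodendrocytes, by 3.53 ± 0.37 (SE, edgeR adjusted p = 1.76e-15). Grik2 and Grik5 had means of 36.9 and 28.6 CPM in committed precursors and 24.8 and 27.8 CPM in precursors, which overlapped.

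NMDA receptors need the obligatory subunit encoded by Grin1, and this gene was barely above the limit: its highest mean was 11.5 CPM, in precursors. The accessory subunit gene Grin3a was the most abundant of the family, at 173, 152, 144 and 163 CPM in precursors, 16.1, 23.8, 14.4 and 3.62 CPM at the committed stage and 5.61, 6.63, 12.3 and 5.96 CPM in mature cells. It was lower in committed precursors by -3.38 ± 0.26 (SE, edgeR adjusted p = 2.99e-21). Astrocytes and tanycytes had 40.2 and 36.4 CPM of Grin3a and were not called different, at 0.21 ± 0.16 (SE, edgeR adjusted p = 0.274). Tanycytes exceeded ependymal cells by 1.72 ± 0.29 (SE, edgeR adjusted p = 2.61e-06). Grin2c was highest in astrocytes, at 62.6, 56.5, 66.0 and 62.0 CPM, with 2.10 to 7.76 CPM in the other types.

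The metabotropic glutamate receptors Grm5 and Grm3 lay at opposite ends of the oligodendrocyte lineage. Grm5, which couples to calcium release, stood at 299.9, 287, 242 and 279.9 CPM in precursors, 12.0, 20.4, 28.7 and 10.9 CPM at the committed stage and 6.90, 13.3, 8.23 and 9.21 CPM in oligodendrocytes. Committed precursors differed from precursors by -4.04 ± 0.23 (SE, edgeR adjusted p = 1.20e-29), lower in 4 of 4 mice, and precursors from oligodendrocytes by 4.59 ± 0.18 (SE, edgeR adjusted p = 1.87e-49). A Grm5 UMI was found in 26.2% of precursors (23.8 to 28.7) and in 3.08% of committed precursors (1.92 to 4.68), although the latter had more UMIs per cell; after thinning the shares were 13.9% and 1.03%. Grm3, which lowers cyclic AMP, stood at 0, 4.10, 8.49 and 6.88 CPM in precursors, 0, 3.40, 0 and 0 CPM at the committed stage and 67.3, 68.2, 53.5 and 60.7 CPM in oligodendrocytes. It was the single chosen gene called lower in precursors than in oligodendrocytes, by -4.17 ± 0.36 (SE, edgeR adjusted p = 4.15e-20). Astrocytes, at 29.0 ± 8.79 CPM, were second, and their highest mouse, at 37.3 CPM, lay below the lowest of the oligodendrocytes. In astrocytes against tanycytes, Grm5 was called at 1.04 ± 0.29 (SE, edgeR adjusted p = 0.00318), close to the fold limit, and not called without mouse 4 (0.77) or without mouse 30 (0.92).

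**Figure D3:**
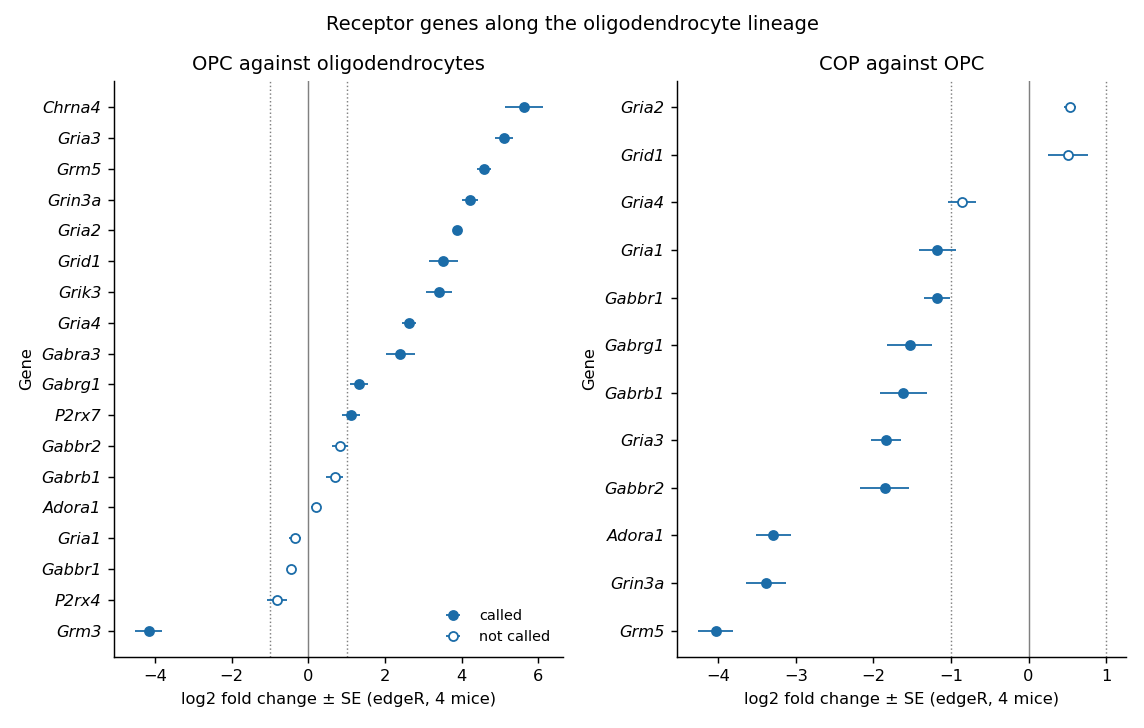
Log2 fold changes ± SE (edgeR, 4 mice) of tested genes between precursors (OPC) and oligodendrocytes (left) and between committed precursors (COP) and precursors (right). Filled points were called and dotted lines mark the fold limit; Chrna4 is left out on the right because committed precursors had no UMI of it. In the left panel Grm3 alone lies left of the lower limit, and in the right panel 2 of 12 points lie above 0.

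GABA-B receptors are heterodimers of the products of Gabbr1 and Gabbr2. In astrocytes, Gabbr1 stood at 406, 481, 396 and 441 CPM and Gabbr2 at 199, 269, 300.2 and 229 CPM. Gabbr1 was present at 91.2 to 229 CPM in each of the other 7 types, with 229 ± 18.5 CPM in oligodendrocytes and 212 ± 30.8 CPM in precursors, which overlapped. Gabbr2 was at 18.0 to 70.7 CPM in those types, or 7.20% to 28.4% of its astrocyte level, against 21.2% to 53.2% for Gabbr1. Astrocytes exceeded tanycytes by 1.42 ± 0.09 (SE, edgeR adjusted p = 1.44e-16) in Gabbr1 and by 2.99 ± 0.12 (SE, edgeR adjusted p = 1.55e-21) in Gabbr2. Tanycytes and ependymal cells were not called different in either gene, at 0.22 ± 0.11 (SE, edgeR adjusted p = 0.107) and 0.78 ± 0.24 (SE, edgeR adjusted p = 0.00732), the second past the p threshold but within the fold limit.

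GABA-A receptors are pentameric chloride channels, usually with alpha, beta and gamma subunits, and several were found in astrocytes and precursors. In astrocytes the leading subunits were Gabrb1, at 249, 248, 206 and 165 CPM, Gabrg1, at 185, 148, 170.1 and 177 CPM, and, at a lower level, Gabra4, at 24.0, 20.6, 34.0 and 19.5 CPM. Astrocytes exceeded tanycytes by 2.69 ± 0.12 (SE, edgeR adjusted p = 4.30e-20) in Gabrb1, 3.21 ± 0.14 (SE, edgeR adjusted p = 3.83e-21) in Gabrg1 and 2.41 ± 0.29 (SE, edgeR adjusted p = 5.52e-09) in Gabra4. The other 7 types had 5.39% to 30.6% of the astrocyte level of Gabrb1 and 10.5% to 39.2% of that of Gabrg1. For the astrocyte markers Agt, Slc1a2 and Gja1 it was 6.06% to 12.0%, 11.9% to 37.4% and 5.08% to 35.0%. In precursors, Gabra3 stood at 35.0, 28.7, 34.0 and 22.9 CPM and was higher than in oligodendrocytes by 2.40 ± 0.38 (SE, edgeR adjusted p = 2.00e-08). Precursors were also the type with the highest neuronal marker sum, and 5 of the 10 markers were highest there while the other 5, Gad2, Stmn2, Syp, Rbfox3 and Slc32a1, were highest in another type; the part of neuronal RNA was not tested. In committed precursors Gabrb1 and Gabrg1 differed from precursors by -1.61 ± 0.31 (SE, edgeR adjusted p = 4.29e-06) and -1.53 ± 0.29 (SE, edgeR adjusted p = 4.44e-06).

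Several GABA-A subunit genes lie in clusters, and the cluster on chromosome 5 held the astrocyte set. In GRCm38 (GENCODE), Gabrg1 lies at chr5:70751047-70842617, Gabra2 at chr5:70957597-71095849 and Gabra4 at chr5:71569749-71658308, all on the minus strand, and Gabrb1 at chr5:71658113-72149037 on the plus strand. Gabrg1, Gabra4 and Gabrb1 had their highest level in astrocytes, while Gabra2 was at 21.0 CPM in precursors and 11.7 CPM in astrocytes, which overlapped. Cox7b2, a cytochrome oxidase gene between them, was at 0 to 6.53 CPM. Gabra4 and Gabrb1 start head to head and their annotated ends overlap, so their start regions are shown. The sequences are RefSeq promoters of GRCm38.p6, 250 bases before to 50 bases after an annotated start and written 5′ to 3′ on the strand of the gene: Gabrb1 at chr5:71657671-71657970 (plus strand, the outer of 2 entries) and Gabra4 at chr5:71658259-71658558 (minus strand). Capitals mark the letters GGGCGG or its reverse complement CCGCCC, a GC box.
Gabrb1: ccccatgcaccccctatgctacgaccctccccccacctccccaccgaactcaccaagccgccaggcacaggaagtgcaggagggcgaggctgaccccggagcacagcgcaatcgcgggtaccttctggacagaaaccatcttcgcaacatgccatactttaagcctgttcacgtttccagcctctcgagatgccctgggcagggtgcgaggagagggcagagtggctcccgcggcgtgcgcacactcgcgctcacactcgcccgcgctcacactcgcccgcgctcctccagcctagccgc
Gabra4: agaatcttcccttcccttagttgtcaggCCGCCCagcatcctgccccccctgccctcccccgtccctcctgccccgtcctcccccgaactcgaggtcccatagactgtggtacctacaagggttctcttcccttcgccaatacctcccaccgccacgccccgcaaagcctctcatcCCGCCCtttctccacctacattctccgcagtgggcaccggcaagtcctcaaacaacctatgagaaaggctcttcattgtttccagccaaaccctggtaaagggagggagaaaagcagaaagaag
The Gabra4 window held 2 matches and the Gabrb1 window 0, beside 35.7% of the 32851 promoters of that table with at least 1 match on either strand. The GC content of the windows was 58.7% for Gabra4 and 66.0% for Gabrb1, against a median of 52.7% over all promoters. Libraries of 3′ ends do not show which start was used.

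Receptors for acetylcholine and monoamines were sparse. Chrna4, a nicotinic subunit, stood at 37.2, 41.0, 38.2 and 50.5 CPM in oligodendrocyte precursor cells (58 UMIs), in 4 of 4 mice. Committed precursors had 0 UMIs of it among 1277887, which allows up to 2.35 CPM (3 counts over the group), so precursors were at least 18.0-fold higher. Oligodendrocytes had 3 UMIs, a pooled ratio of 80.4 with a 95% counting interval of 26.2 to 401. Adra2a, the inhibitory noradrenaline receptor, stood at 68.9, 86.1, 42.0 and 59.5 CPM in astrocytes, with 4.70 to 12.2 CPM in the other types. Astrocytes exceeded ependymal cells by 2.37 ± 0.25 (SE, edgeR adjusted p = 1.06e-07) and were also called higher than tanycytes, in 4 of 4 mice. Adrb1 was called higher in astrocytes than in tanycytes, but on 61 against 3 UMIs, a pooled ratio of 20.9 (counting interval 6.84 to 104). Adra1a and the muscarinic receptor Chrm1 had their highest means, 17.0 and 15.3 CPM, in precursors.

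P2ry12, the ADP receptor that steers microglial processes, stood at 599.5, 536, 264 and 514 CPM in microglia and at 2.18 to 8.16 CPM in the other 7 types. P2ry13, also an ADP receptor, stood at 202, 268, 91.3 and 286 CPM against 0.113 to 1.79 CPM elsewhere. P2ry6, the UDP receptor linked to phagocytosis, stood at 195, 201, 182.5 and 185 CPM against 0 to 1.72 CPM elsewhere. Microglia exceeded astrocytes by 6.62 ± 0.31 (SE, edgeR adjusted p = 3.09e-37) in P2ry12, with 191 against 29 UMIs. For P2ry13 and P2ry6 astrocytes had 1 and 2 UMIs, so the pooled ratios of 1137 (counting interval 198 to 45452) and 520 (139 to 4373) are given in place of a fitted fold. A P2ry12 UMI was found in 36.3% of microglia (31.5 to 41.4) and in 0.474% of astrocytes, at medians of 939 and 851 UMIs, and in 20.3% and 0.220% after thinning to 500 UMIs. Among the ionotropic purine receptors, P2rx4 stood at 82.4, 89.4, 60.8 and 75.8 CPM in microglia and exceeded astrocytes by 2.55 ± 0.41 (SE, edgeR adjusted p = 6.00e-08). P2rx7, its neighbour on chromosome 5, stood at 61.8 ± 38.5 CPM in microglia and 58.9 ± 26.3 CPM in oligodendrocyte precursor cells, which overlapped.

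Mouse 30 differed from the others in some of these genes. P2ry12 stood at 264 CPM there (26 UMIs, 95% Poisson interval 172 to 386), below the intervals of mice 3 (475 to 746) and 34 (393 to 660) and overlapping that of mouse 4 (344 to 798). P2ry13 had 91.3 CPM in mouse 30, the lowest of the 4 mice. P2ry6, at 182.5 CPM in mouse 30 and 185 to 201 CPM in the others, did not show this. Among the microglia markers, mouse 30 had 1247 CPM of Cx3cr1 and the rest 2257 to 2398 CPM, with Tmem119 at 466 against 792 to 983 CPM and Siglech at 253 against 447 to 590 CPM, while C1qa (2981 against 2856 to 2930 CPM) and Csf1r (1440 against 1484 to 1676 CPM) were close. The summed level of 5 macrophage markers was 466 CPM in mouse 30, 455 CPM in mouse 34 and 97.4 and 201 CPM in mice 3 and 4. Of the 95 microglia of mouse 30, 6 had UMIs of neither list or equal numbers of both, 4 were led by macrophage markers and 85 by microglia markers; in these 85, P2ry12 had 287 CPM, and the same cells of the other mice 535 to 601 CPM. These differences between mice were not tested. Without mouse 30, the log2 fold change of P2ry12 in microglia against astrocytes was 6.92.

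**Figure D4:**
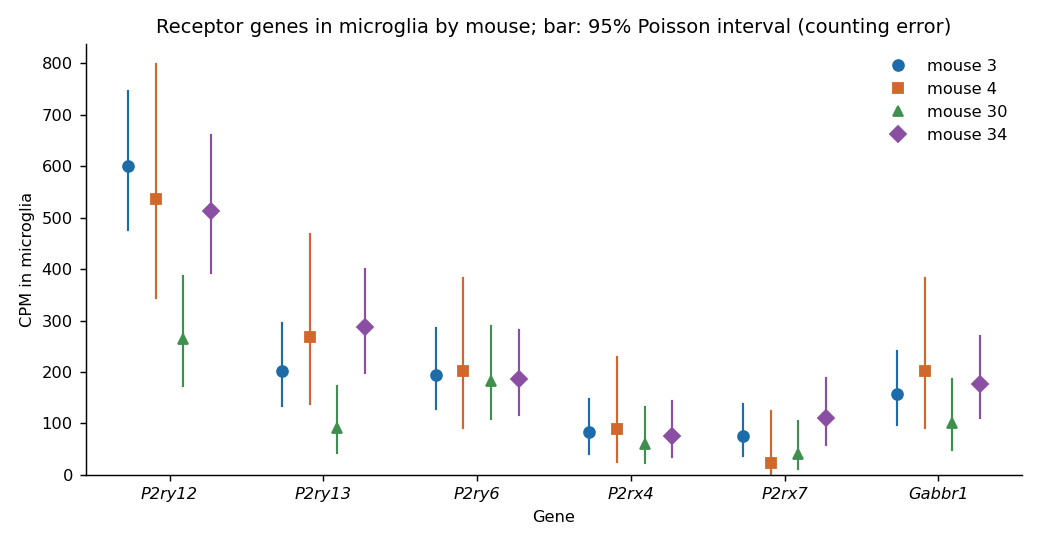
Level of 6 receptor genes in the microglia of each of 4 mice (CPM, linear axis that starts at 0). Points are mice and bars the 95% Poisson interval of the UMI count, which covers counting error only. For P2ry12 mouse 30 lies at 264 CPM and the others at 514 to 600 CPM, while for P2ry6 the 4 mice lie between 182.5 and 201 CPM.

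P2ry12, P2ry13 and P2ry14 lie side by side on the minus strand of chromosome 3, at chr3:59216272-59262871, chr3:59207892-59210882 and chr3:59113855-59153618 (GRCm38, GENCODE), within the span of Med12l, which runs on the opposite strand at chr3:59005825-59318682. P2ry12 and P2ry13 were highest in microglia, whereas P2ry14, the receptor for UDP-glucose, was highest in endothelial cells, at 78.8, 91.0, 94.9 and 96.5 CPM, and stood at 2.11 CPM in microglia. Med12l was at 5.26 to 22.3 CPM in the 8 types, at 21.3 CPM in microglia and 5.38 CPM in endothelial cells. Whether counting used the strand is not given in the sources used here. Because neighbouring genes differed by cell type, their start regions are shown, as RefSeq promoters of GRCm38.p6 written 5′ to 3′ on the minus strand: P2ry12 at chr3:59262936-59263235, P2ry13 at chr3:59210833-59211132 and P2ry14 at chr3:59153443-59153742, the outermost of 4 entries. Capitals mark the letters GAGGAA or the reverse complement TTCCTC, which occur in sites bound by the myeloid factor PU.1. The shorter GGAA was not marked where it stood without these letters, as in the window of P2ry12.
P2ry12: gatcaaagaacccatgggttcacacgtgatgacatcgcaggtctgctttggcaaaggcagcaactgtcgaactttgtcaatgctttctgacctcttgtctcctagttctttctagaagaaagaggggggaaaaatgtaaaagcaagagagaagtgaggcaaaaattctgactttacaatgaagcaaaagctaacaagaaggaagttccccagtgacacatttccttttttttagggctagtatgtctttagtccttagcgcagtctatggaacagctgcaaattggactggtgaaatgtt
P2ry13: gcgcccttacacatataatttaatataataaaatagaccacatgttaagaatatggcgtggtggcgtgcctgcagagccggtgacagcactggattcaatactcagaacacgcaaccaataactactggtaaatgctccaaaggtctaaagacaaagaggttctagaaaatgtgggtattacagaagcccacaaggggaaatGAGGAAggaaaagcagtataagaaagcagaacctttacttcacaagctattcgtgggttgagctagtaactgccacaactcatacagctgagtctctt
P2ry14: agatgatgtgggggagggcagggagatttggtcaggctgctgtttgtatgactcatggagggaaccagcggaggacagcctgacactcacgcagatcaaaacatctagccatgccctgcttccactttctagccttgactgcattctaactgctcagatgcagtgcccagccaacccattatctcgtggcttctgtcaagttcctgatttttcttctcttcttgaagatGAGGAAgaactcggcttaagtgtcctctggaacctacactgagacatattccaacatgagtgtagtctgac
There was 1 match in the window of P2ry13, 1 in that of P2ry14 and 0 in that of P2ry12, beside 28.3% of the 32851 promoters with at least 1 match. These letters are a description of the windows only.

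In endothelial cells, P2ry14 exceeded its astrocyte level by 4.64 ± 0.28 (SE, edgeR adjusted p = 1.57e-22), higher in 4 of 4 mice, and Adora2a, the adenosine receptor that raises cyclic AMP, stood at 12.0, 34.7, 37.9 and 22.9 CPM, with 0 to 1.87 CPM elsewhere. The label also held cells of the vessel wall other than endothelium. Of 1266 cells, 983 had more UMIs of the 5 endothelial markers, 237 more of the 8 mural markers (pericytes and smooth muscle) and 46 had neither or equal numbers. P2ry14 stood at 38.9, 46.6, 40.3 and 61.5 CPM in the cells led by endothelial markers and at 231, 234, 291 and 218 CPM in those led by mural markers (63 and 79 UMIs), without overlap. Adora2a stood at 10.8, 23.3, 25.2 and 10.6 CPM in the first and 19.3, 58.6, 77.7 and 70.2 CPM in the second, with 19 and 18 UMIs. The ranges overlapped, but the cells led by mural markers were higher within each of the 4 mice. The ADP receptor P2ry1 had 14 UMIs among 1303989 in the cells led by endothelial markers, 11 of them in mouse 34 and 1 in each other mouse, and 0 among 334738 in those led by mural markers, which allows up to 8.96 CPM (3 counts over the group). No test was run on this division, which rests on marker counts in single cells, and free RNA of the other kind was not separated.

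**Figure D5:**
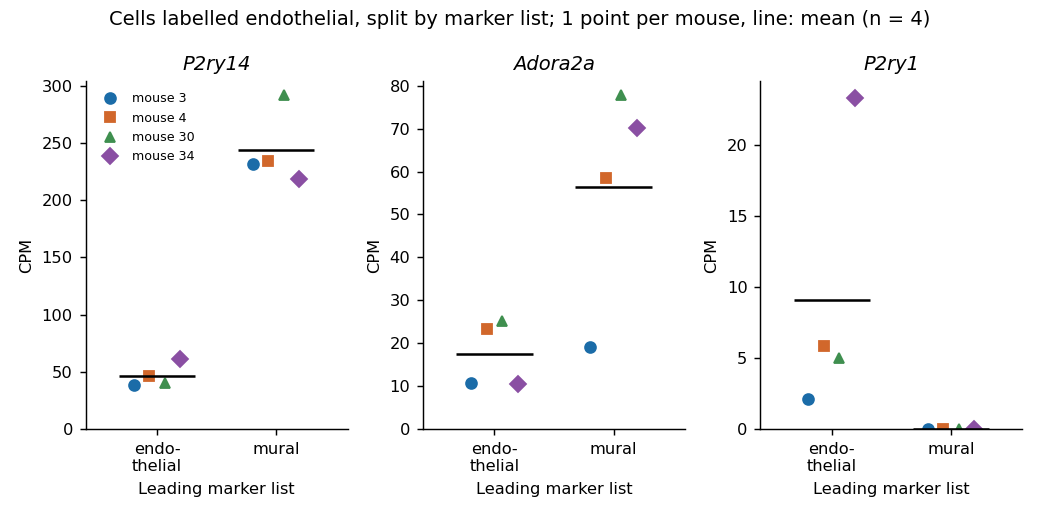
Level of 3 receptor genes (CPM, linear axes that start at 0) in the cells labelled endothelial, divided by the marker list with more UMIs in the cell. Each point is 1 mouse and the line is the mean of 4. P2ry14 lies at 38.9 to 61.5 CPM where endothelial markers lead and at 218 to 291 CPM where mural markers lead.

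At the ventricle wall, purine receptors separated the 2 lining cell types in part. P2rx6, an ATP-gated channel subunit, stood at 39.3, 55.6, 37.9 and 48.7 CPM in tanycytes and 37.2, 52.0, 23.2 and 44.5 CPM in ependymal cells, which overlapped, and at 0 to 10.4 CPM in the other types. Tanycytes and ependymal cells were not called different, at 0.29 ± 0.19 (SE, edgeR adjusted p = 0.214), while astrocytes lay below tanycytes by -1.88 ± 0.20 (SE, edgeR adjusted p = 3.00e-10) on the log2 scale. Slc7a4, which overlaps P2rx6 on the opposite strand, had 218 UMIs over all cells against 432 of P2rx6, and reads of the 2 genes cannot be told apart without strand. Adora2b, the low-affinity adenosine receptor, stood at 19.4, 23.1, 21.1 and 22.9 CPM in ependymal cells and 1.47, 2.27, 0 and 0.56 CPM in tanycytes, a difference of -4.11 ± 0.51 (SE, edgeR adjusted p = 4.29e-09) on 6 against 49 UMIs. P2rx7 and P2rx4 were also lower in tanycytes, by -1.51 ± 0.28 (SE, edgeR adjusted p = 1.84e-05) and -1.17 ± 0.27 (SE, edgeR adjusted p = 3.23e-04); the second was within the fold limit without mouse 34, at -0.96.

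Adora1, the high-affinity adenosine receptor that lowers cyclic AMP, was high at both ends of the oligodendrocyte lineage and low between them. It stood at 208, 168, 195 and 216 CPM in precursors, 22.1, 20.4, 14.4 and 18.1 CPM at the committed stage and 140.1, 116, 138 and 139 CPM in oligodendrocytes. Committed precursors lay below both other stages in every mouse, and the difference from precursors was -3.29 ± 0.23 (SE, edgeR adjusted p = 9.29e-24). Precursors and oligodendrocytes were not called different, at 0.20 ± 0.12 (SE, edgeR adjusted p = 0.147), although precursors had the higher CPM in 4 of 4 mice. Astrocytes followed, at 99.7, 109, 88.1 and 113 CPM, and exceeded tanycytes by 2.07 ± 0.15 (SE, edgeR adjusted p = 2.21e-14). An Adora1 UMI was found in 19.2% of precursors, 3.38% of committed precursors and 15.1% of oligodendrocytes, and in 9.68%, 0.441% and 5.98% after thinning.

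A fixed list of 18 genes linked to the handling of extracellular ATP and adenosine was read beside the receptors, and 17 of them were listed. The list is broad, and not every gene on it is known here to supply or clear these ligands. Entpd2, an ectoenzyme that turns ATP into ADP, stood at 165 ± 30.8 CPM in astrocytes and Entpd1, which goes on to AMP, at 145 ± 53.5 CPM in microglia. In microglia against astrocytes, 2 of 4 tested genes were called higher, Entpd1 by 4.24 ± 0.36 (SE, edgeR adjusted p = 1.59e-19) and Slc29a3 by 2.56 ± 0.28 (SE, edgeR adjusted p = 1.17e-13), and 2 lower, Entpd2 by -3.83 ± 0.48 (SE, edgeR adjusted p = 2.81e-11) and Adk, adenosine kinase, by -1.62 ± 0.31 (SE, edgeR adjusted p = 4.97e-06). Astrocytes exceeded tanycytes in 6 of 9 tested genes of the list and were lower in 0, with Entpd2 at 3.07, Slc29a2 at 2.22, Adk at 2.18, Slc29a1 at 1.75, Entpd1 at 1.55 and Slc29a3 at 1.38. Along the lineage, Enpp2, autotaxin, stood at 189 ± 33.9 CPM in precursors, 619 ± 24.6 CPM at the committed stage and 1111 ± 56.2 CPM in oligodendrocytes. In committed precursors, 3 of 4 genes were called higher than in precursors, Panx1, a channel that releases ATP, by 2.22 ± 0.30 (SE, edgeR adjusted p = 6.38e-10), Tmem163 by 1.97 ± 0.21 (SE, edgeR adjusted p = 2.38e-14) and Enpp2 by 1.71 ± 0.12 (SE, edgeR adjusted p = 1.37e-24).

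Of 15 further receptor genes outside the chosen symbols, 10 were listed and 2 were tested in any comparison. Hrh1, a histamine receptor, was called higher in astrocytes than in tanycytes, by 3.78 ± 0.28 (SE, edgeR adjusted p = 1.86e-14), and than in ependymal cells, by 3.07 ± 0.32 (SE, edgeR adjusted p = 5.56e-08). Glrb, the beta subunit of the glycine receptor, stood at 95.2 ± 13.7 CPM in precursors, 567 ± 94.9 CPM at the committed stage and 170 ± 19.5 CPM in oligodendrocytes, and committed precursors exceeded precursors by 2.62 ± 0.13 (SE, edgeR adjusted p = 8.28e-33). It was called lower in precursors than in oligodendrocytes, at -1.21 ± 0.14 (SE, edgeR adjusted p = 5.90e-14). Of the chosen genes, Gria2, Grid1, Grik2 and Grik5 also had their highest means in committed precursors, and neither of the 2 tested was called higher there than in precursors.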

How the data were processed

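RNA of hypothalamic cells of mice given FGF1 R50E was counted by the authors as UMI counts per gene and cell, with Cell Ranger 1.2 and Seurat per the submitters' processing notes. The deposited cell table also gave each cell's library, the authors' cell type label, mitochondrial UMIs as a percent and a doublet score as a fraction; 50172 cells of 12 libraries without a label here were not used. The score lay between 0.0046 and 0.6516 and was not used: no cell was removed as a doublet and no caller was run, and whether doublets were removed before deposit is not given in the sources used here. Counts of R50E cells were summed per mouse and type (20 or more cells). Tests used edgeR 4.0.16 (quasi-likelihood, TMM, filterByExpr, mouse as a block, since all types came from the same mice), with Benjamini-Hochberg adjustment over all genes; DESeq2 1.42.0, other scalings, filters, thinning and leaving out each mouse were alternatives. Totals per mouse were 3299971 to 8856079 UMIs. The 82 genes, the other lists and the markers were chosen with earlier results of these data known. Named were mainly the 5 genes of highest level per type, and called genes. Others, among them Grin1, Grik2, Gabra2, Adora2a, Chrm1, Adra1a and P2ry1, were named without meeting either condition. Separate libraries per mouse were replicates. Of 19954 barcodes, 194 occurred in more than 1 mouse. Tests were tried on simulated data drawn without an effect of mouse, in which 85% to 100% of 4-fold changes and 36% to 52% of 2-fold changes were called. A 2-fold change lies on the fold limit itself. By adjusted p alone, 44% to 85% of 2-fold changes passed, and 0% to 3.2% of the calls were false. Positions came from GENCODE for GRCm38. A promoter entry was found for 57 genes. Some genes are not reported here by name, in the text or the figures, but stay in the counts.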

Additional observations from a re-analysis of the deposited data

Results flagged for a closer look

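Among the 5 genes of highest level in each of 8 cell types, 40 values were screened for a mouse far from the other 3 by the gap between neighbouring mice relative to the range. By chance about 1 in 20 groups shows such a gap. Adora1 in oligodendrocytes was one: mouse 4 had 115.5 CPM, and the other mice 138 to 140 CPM. Gria2 in endothelial cells was the other: mouse 30 had 49.3 CPM, and the other mice 39.0 to 39.4 CPM.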

How the results depend on the processing

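No result changed direction. With sums thinned to equal totals the called genes of the 82 numbered 12 (astrocytes against tanycytes), 8 (astrocytes against ependymal cells), 3 (tanycytes against ependymal cells), 7 (precursors against oligodendrocytes), 4 (microglia against astrocytes) and 9 (endothelial cells against astrocytes). The low-count filter was applied again to the thinned sums, and the cause of the lower counts was not tested. With no filter on low counts the called genes of the 82 numbered 12 (tanycytes against ependymal cells), 23 (precursors against oligodendrocytes), 22 (committed precursors against precursors) and 27 (endothelial cells against astrocytes). The counts over all genes moved in the same direction at these settings and are given at the end of this section. Without the replicate block the counts were 19, 16, 6, 15, 11, 14 and 17, in the order of the report. Leaving out each mouse in turn gave 16 to 19, 15 to 18, 5 to 8, 13 to 17, 11 to 14, 14 to 15 and 16 to 18. At a limit of 20 CPM, 15 genes were measurable in astrocytes, 9 in tanycytes, 11 in ependymal cells, 10 in oligodendrocytes and 9 in endothelial cells, and at 5 CPM 30 in tanycytes, 30 in ependymal cells, 26 in oligodendrocytes and 23 in endothelial cells. Without 1 mouse the measurable genes numbered 24 to 26 in astrocytes, 16 to 18 in tanycytes, 18 to 21 in ependymal cells, 30 to 34 in precursors, 19 in committed precursors, 14 to 17 in oligodendrocytes, 13 to 15 in endothelial cells and 10 in microglia. Of 917 values of 98 single-gene results, 905 kept their call; 12 values of 6 genes (Grm5, Adora1, P2rx4, Gabrg1, P2rx7 and Gria1) fell under the fold limit with an adjusted p still below 0.05, and the cause was not tested. Over all genes, the called genes of microglia against astrocytes numbered 1805, and 295 with thinned sums, 2950 with no filter and 2963 with 1 fit over all types. For committed precursors against precursors they numbered 1172, 2301 with no filter and 2132 with 1 fit. Precursors against oligodendrocytes gave 1820, and 3054 with no filter and 1239 with thinned sums. Thinning changed 2128 to 1346 (astrocytes against tanycytes), 2665 to 1797 (astrocytes against ependymal cells), 1743 to 1084 (tanycytes against ependymal cells) and 2664 to 1516 (endothelial cells against astrocytes). With no filter, 1743 became 2511 (tanycytes against ependymal cells) and 2664 became 3943 (endothelial cells against astrocytes).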
